A study of Mus musculus with 8 samples.

Results

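The Slc2a genes encode the facilitative sugar transporters, the GLUT proteins, which let hexoses and related compounds cross membranes down their gradient. The 9 members described here, Slc2a1, Slc2a3, Slc2a4, Slc2a6, Slc2a8, Slc2a9, Slc2a10, Slc2a12 and Slc2a13, were taken by gene symbol from the 20254 genes of the table. The data are RNA sequencing libraries of polyadenylated RNA from cells of mouse kidneys at embryonic day 17.5, put into suspension and sorted by GFP fluorescence. The strain of all 8 libraries is Six2EGFPcre, in which a transgene expresses GFP and Cre recombinase under Six2, a transcription factor of nephron progenitor cells. In 4 libraries the genotype is VHLNP-/-, with both Vhl alleles deleted in these cells (mutants 1 to 4). In the other 4 it is VHLNP+/-, in which the controls too carry 1 deleted allele (controls 1 to 4). The Cre acts only where Six2 drives it, so cells of the embryo outside this lineage keep Vhl. Nothing in the labels says that each library is from its own embryo or litter, so every p-value below is relative to a between-library spread that may be technical.

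Nephron progenitors are the self-renewing cap mesenchyme cells from which the nephron epithelium forms. Glucose enters most cells through GLUT1, the product of Slc2a1, and cells with a high demand often also use GLUT3, the high-affinity neuronal transporter encoded by Slc2a3. Other family members work in insulin-responsive vesicles (GLUT4, Slc2a4), inside the cell (GLUT6 and GLUT8), or on urate (GLUT9) and myo-inositol (HMIT, Slc2a13). The Vhl product targets the alpha chains of the transcription factor HIF (hypoxia-inducible factor) for breakdown when oxygen is present, and Slc2a1 and Slc2a3 are known HIF targets in many cell types.

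Values are normalised reads, that is reads per gene divided by the size factor of the library, and the libraries held between 37252683 and 46515762 reads. Fold changes are differences on the log2(normalised reads + 1) scale from a limma fit across 15381 genes, those that reached 10 normalised reads in 4 or more libraries. A gene was called at a Benjamini-Hochberg adjusted p under 0.05 over all of them. Vhl itself had 318 ± 23.2 normalised reads in mutants, against 1225 ± 107 in controls (SD, n = 4 each), with a log2 fold change of -1.94 (limma, adjusted p = 4.22e-08). Six2 had between 21600 and 26992 normalised reads in mutants and between 21553 and 28134 in controls, so the sorted cells of both groups carried the RNA of the labelled cell type. In such bulk samples, fewer cells of a type and less RNA per cell cannot be told apart. Control 3 and mutant 2 had the lowest sums of their groups in 6 of the 9 lists of cell type markers (tubule, stroma, ureteric bud, endothelium, leukocyte and early nephron) and the highest sums of nephron progenitor markers, so members that were extreme in both are also given without them.

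All 9 members passed the filter on low values and were tested. Of these 3 rose in the mutants (Slc2a1, Slc2a3 and Slc2a12), 1 fell (Slc2a4) and 5 were not called. Over all genes tested 8.43% were called, 5.4% as higher (831 genes) and 3.03% as lower (466 genes). With libraries scaled to their total reads the split over all genes was 754 higher and 839 lower. The median log2 fold change of the 9 members was 0.04, beside -0.01 over all genes tested. The mutant and control libraries did not overlap for the 4 called members (3 with mutants higher and 1 with mutants lower), against 15.3% of all genes tested (8.54% with mutants higher and 6.72% with mutants lower).

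Slc2a1, the basal glucose transporter, was the most abundant member in every library. It had 13014, 11768, 10875 and 11986 normalised reads in mutants 1 to 4, against 2762, 3327, 3939 and 3081 in controls 1 to 4. The lowest mutant lay far above the highest control, control 3. The means were 11911 ± 879 in mutants and 3277 ± 498 in controls (SD, n = 4 each), a log2 fold change of 1.87 with a standard error of 0.10 and a 95% interval of 1.65 to 2.09 (limma, adjusted p = 3.45e-07). In the authors' deposited table the log2 fold change of Slc2a1 is 1.86 with an adjusted p of 1.79e-70. Slc2a1 lies on chromosome 4 (chr4:119108711-119137983, GRCm38, plus strand). The annotation places Mir1957a inside it on the same strand, and Gm12867 and Gm12868 on the opposite strand. No source used here says whether reads were counted by strand.

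Slc2a3 had the larger fold change of the pair. It had 4011, 4086, 4038 and 4363 normalised reads in mutants 1 to 4, against 379, 327, 303 and 303 in controls 1 to 4. The mutants lay close together, and every one was more than 10 times any control. The means were 4124 ± 162 in mutants and 328 ± 36.2 in controls (SD, n = 4 each), a 12.6-fold difference with a log2 fold change of 3.65 and a 95% interval of 3.48 to 3.83 (limma, adjusted p = 1.35e-10). Ordered by log2 fold change, Slc2a3 was number 12 of all genes tested and Slc2a1 number 80. Slc2a3 lies on chromosome 6 (chr6:122727809-122801640, GRCm38, minus strand), where the pseudogene Gm4482 overlaps it on the same strand.

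**Figure D1:**
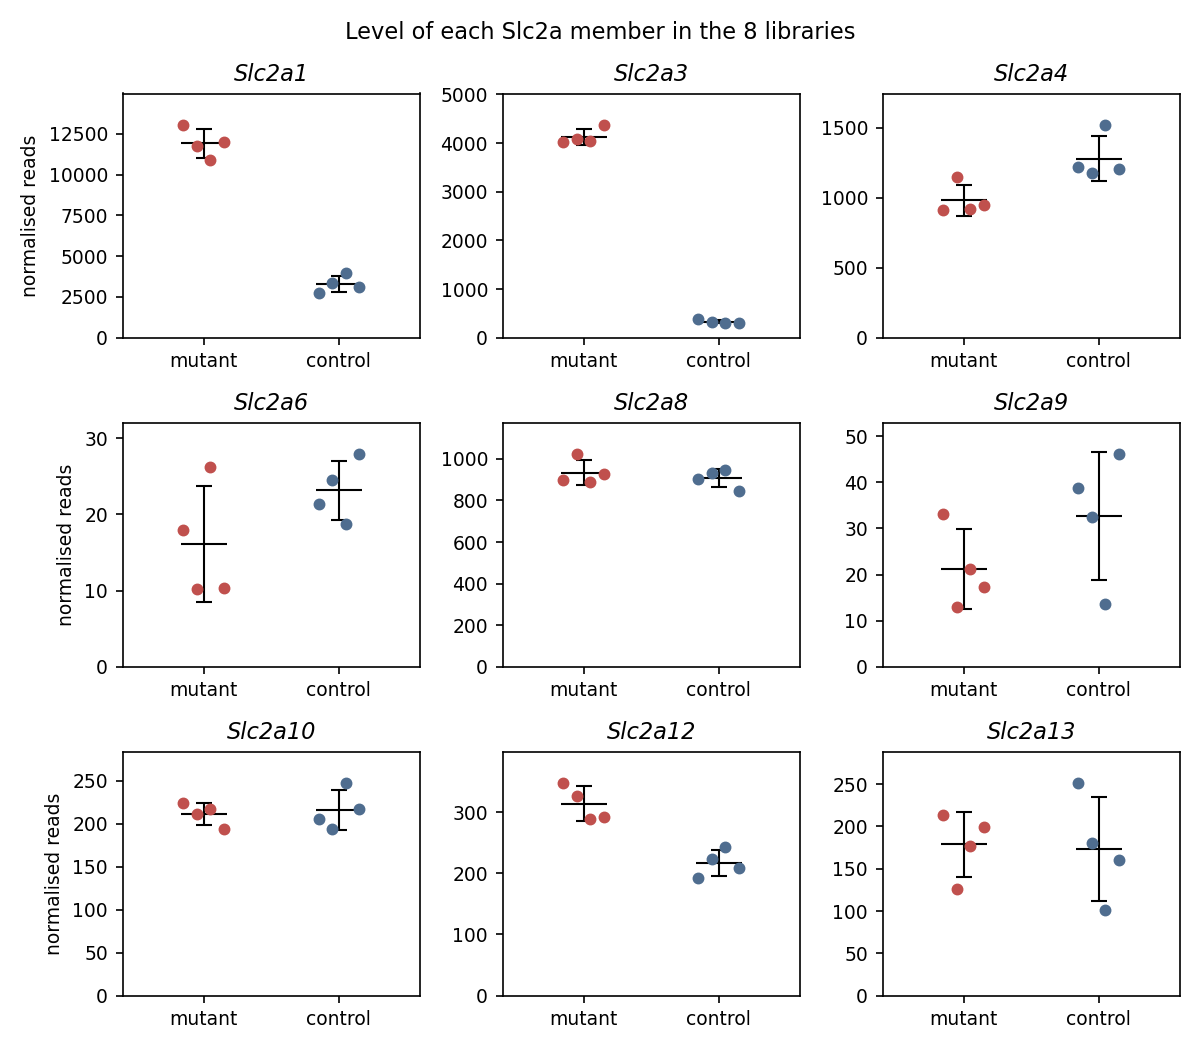
Normalised reads of each Slc2a member in every library (a panel per gene, linear axis from 0), with mutants left of controls; points are libraries, and the black marks are group means with their SD. Slc2a1 and Slc2a3 stand clear of their controls, Slc2a12 and Slc2a4 are separated by a narrow gap, and the other members overlap.

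Slc2a12, which encodes GLUT12, a glucose transporter of the same class as GLUT10, rose by a smaller amount. It had 347, 327, 288 and 292 normalised reads in mutants 1 to 4, against 193, 224, 243 and 208 in controls 1 to 4. The lowest mutant was above the highest control, which again was control 3. The means were 314 ± 28.3 in mutants and 217 ± 21.5 in controls (SD, n = 4 each), a log2 fold change of 0.53 with a 95% interval of 0.29 to 0.77 (limma, adjusted p = 0.0113). Slc2a12 lies on chromosome 10 (chr10:22645011-22704285, GRCm38, plus strand) and overlaps Tbpl1, a TBP-related transcription factor gene, on the other strand. Tbpl1 was far more abundant, with 3054 normalised reads in mutants and 3096 in controls (log2 fold change -0.02, limma adjusted p = 0.869).

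Slc2a4, the insulin-responsive transporter of muscle and fat, was the one member that fell. It had 912, 1148, 921 and 948 normalised reads in mutants 1 to 4, against 1221, 1180, 1518 and 1203 in controls 1 to 4. Mutant 2 and control 3 were each the highest of their group, and mutant 2 came close to the lowest control. The means were 982 ± 112 in mutants and 1281 ± 159 in controls (SD, n = 4 each), so the mutants held 76.7% of the control level, with a log2 fold change of -0.38 and a 95% interval of -0.60 to -0.16 (limma, adjusted p = 0.0362). The call was lost when any of controls 2, 3 or 4 or mutants 1, 3 or 4 was left out, with adjusted p between 0.0505 and 0.109. Without both control 3 and mutant 2 the log2 fold change was -0.37 (limma, adjusted p = 0.0106). Those libraries held the values of Slc2a4 farthest from the rest of each group, so leaving them out narrows its spread by construction. No support for the call is drawn from that p-value. Slc2a4 lies on chromosome 11 (chr11:69942539-69948188, GRCm38, minus strand).

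The other 5 members were not called. Slc2a8, which encodes an intracellular hexose transporter, had 900, 1022, 887 and 925 normalised reads in mutants 1 to 4, against 905, 930, 945 and 847 in controls 1 to 4. Its groups overlapped almost entirely, and its log2 fold change of 0.04 had the narrowest interval of the uncalled members, -0.11 to 0.19 (limma, adjusted p = 0.778). Slc2a10, whose human counterpart is mutated in arterial tortuosity syndrome, had 224, 211, 217 and 194 normalised reads in mutants 1 to 4, against 206, 194, 247 and 217 in controls 1 to 4. Its log2 fold change was -0.03, with an interval of -0.27 to 0.21 (limma, adjusted p = 0.923).

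Slc2a13, the proton-coupled myo-inositol transporter, varied within both groups. It had 213, 126, 177 and 199 normalised reads in mutants 1 to 4, against 251, 181, 101 and 160 in controls 1 to 4. Mutant 2 and control 3 were the lowest of their groups. The coefficient of variation among controls was 35.7%, where counting error alone gives 7.52%. The log2 fold change of 0.09 therefore had a wide interval, -0.50 to 0.68 (limma, adjusted p = 0.886).

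Slc2a9 and Slc2a6 were the least abundant members, and differences in them were not detectable with this spread. Slc2a9, a urate transporter, had 33.2, 13.0, 21.1 and 17.2 normalised reads in mutants 1 to 4, against 38.8, 32.4, 13.6 and 46.1 in controls 1 to 4. Mutant 2 and control 3 were again the lowest of their groups, and the log2 fold change was -0.56 with an interval of -1.42 to 0.30 (limma, adjusted p = 0.429). Slc2a6, which encodes a lysosomal family member, had 18.0, 10.2, 26.2 and 10.3 normalised reads in mutants 1 to 4, against 21.4, 24.5, 18.8 and 27.9 in controls 1 to 4. Its groups overlapped, with a log2 fold change of -0.58 and an interval of -1.29 to 0.13 (limma, adjusted p = 0.316).

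**Figure D2:**
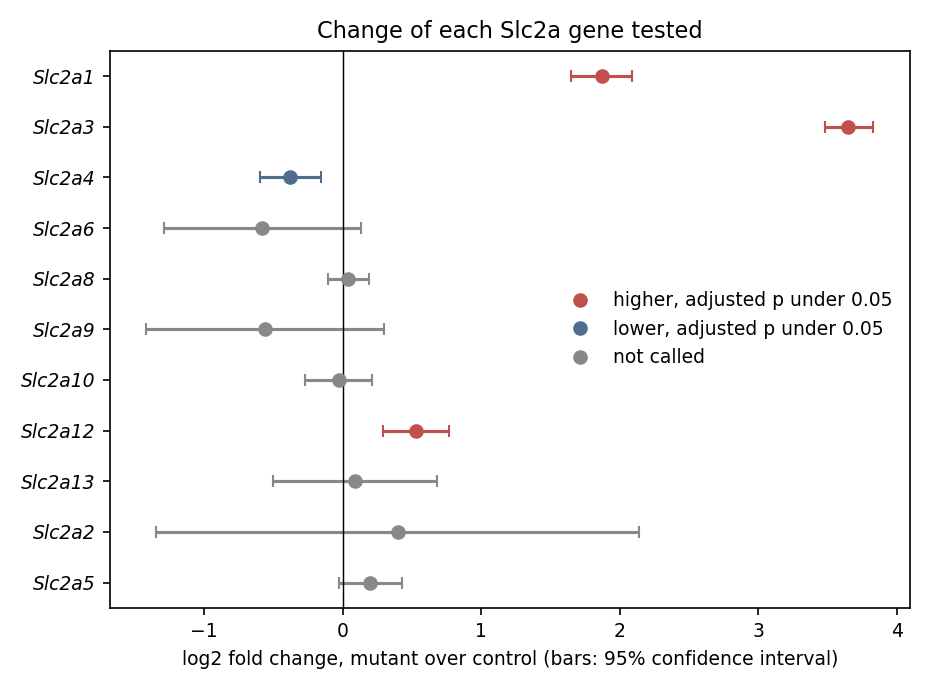
Log2 fold change of each Slc2a gene tested, mutant over control, with 95% intervals from the limma fit, coloured by whether the gene was called higher, lower or not. The intervals of Slc2a1, Slc2a3, Slc2a12 and Slc2a4 exclude 0, and those of Slc2a9, Slc2a6, Slc2a13 and Slc2a2 are wide.

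The table holds 3 further genes of the family. Slc2a5, the fructose transporter, had 183, 192, 168 and 175 normalised reads in mutants 1 to 4, against 153, 150, 158 and 162 in controls 1 to 4. Its groups did not overlap, but the log2 fold change of 0.20, with an interval of -0.03 to 0.43, did not pass the test (limma, adjusted p = 0.273). Slc2a2, the low-affinity transporter of liver and proximal tubule, had 180, 53.8, 99.7 and 72.2 normalised reads in mutants 1 to 4, against 78.6, 134, 15.7 and 135 in controls 1 to 4. It was lowest in mutant 2 and control 3 and its groups overlapped, with an interval of -1.35 to 2.14 (limma, adjusted p = 0.805). Slc2a7 had 1 read, in mutant 3, and was under the filter.

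Markers of other cell types moved with some of these genes from library to library. The 10 tubule markers, among them Slc34a1, Lrp2 and Umod, summed to 10264, 4175, 6166 and 4524 normalised reads in mutants 1 to 4, against 6771, 8851, 2390 and 8058 in controls 1 to 4. The sums were lowest in mutant 2, close to mutant 4, and in control 3. In mutant 2 and control 3, Slc2a9, Slc2a13 and Slc2a2 were lowest and Slc2a4 highest within each group. Slc2a6 was also lowest there (10.2 in mutant 2, near 10.3 in mutant 4), and Slc2a8 also highest. The pattern was not one of tubule markers alone. In mutant 2 and control 3 the sums were also the lowest of their groups for stroma (22260 and 25317 normalised reads), ureteric bud (3911 and 2419), endothelium (1911 and 1395), leukocytes (631 and 554) and early nephron (28272 and 29876). Progenitor marker sums were the highest of their groups there, at 111667 in mutant 2 and 115340 in control 3. Without both libraries the log2 fold change was -0.73 for Slc2a9 (limma, adjusted p = 0.22), 0.02 for Slc2a13 (limma, adjusted p = 0.975) and -0.04 for Slc2a2 (limma, adjusted p = 0.963), which was 0.40 with all 8 libraries. For Slc2a8 it was 0.02 (limma, adjusted p = 0.93) and for Slc2a6 -0.50 (limma, adjusted p = 0.485) without both. None of the 10 tubule markers was called by limma, by limma-voom or in the authors' deposited table, and 0 had an unadjusted p under 0.05. The part of RNA from other cell types in these results was not tested.

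**Figure D3:**
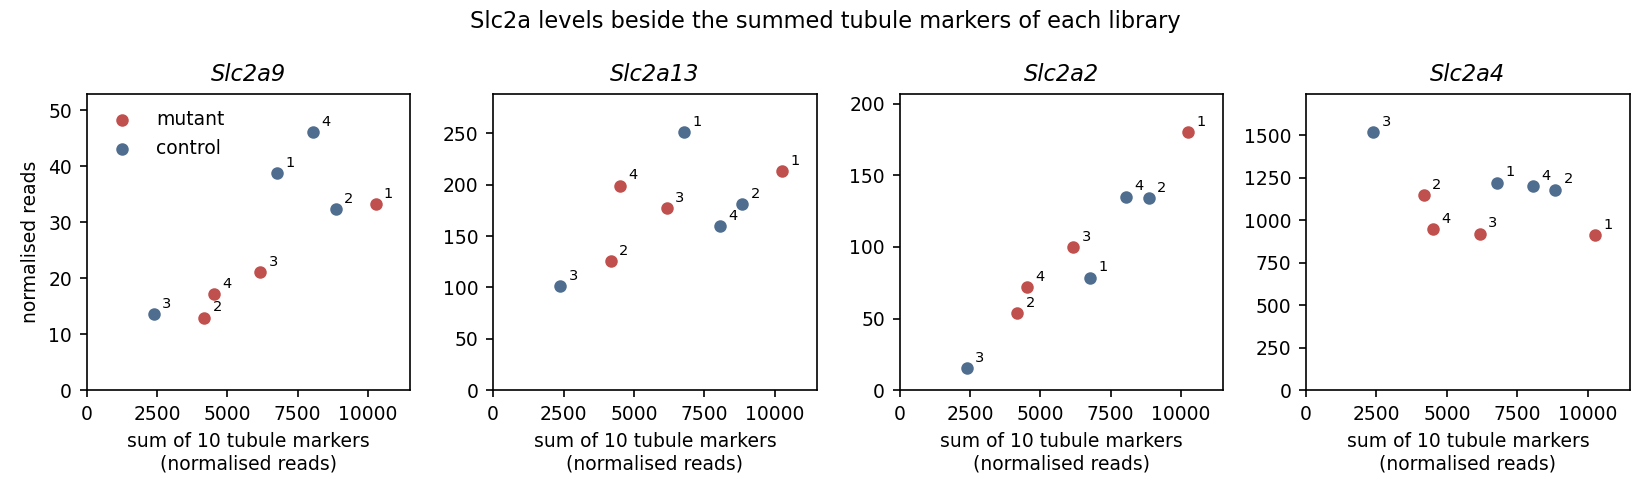
Normalised reads of Slc2a9, Slc2a13, Slc2a2 and Slc2a4 (a panel each; points numbered by library) against the summed normalised reads of the 10 tubule markers, mutants and controls marked apart. Control 3 (2390) and mutant 2 (4175) have the lowest sums of their groups, with the lowest Slc2a9, Slc2a13 and Slc2a2 and the highest Slc2a4.

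The other marker lists are given as summed RNA, which does not measure how many cells of a type were present. Counts of called markers stand beside 5.4% of all genes tested called higher and 3.03% called lower. Nephron progenitor markers summed to 103319 to 111667 normalised reads in mutants and 105575 to 115340 in controls, and of 10 tested 1 rose (Gdnf) and 3 fell (Meox1, Osr1 and Tmem100). Early nephron markers summed to 28272 to 35016 in mutants and 29876 to 35528 in controls, with 1 of 10 lower (Cdh6). The podocyte list, which includes Wt1, also expressed by progenitors, summed to 17160 to 19147 in mutants and 20231 to 26498 in controls, with no overlap and 1 of 10 lower. Stroma markers summed to 22260 to 44730 in mutants and 25317 to 55846 in controls, and ureteric bud markers to 3911 to 8117 in mutants and 2419 to 7478 in controls, with none called by limma in either list (0 stroma and 1 ureteric bud marker at an unadjusted p under 0.05). Endothelial markers summed to 1911 to 2529 in mutants and 1395 to 2635 in controls, with 1 of 10 higher (Plvap). Macrophage and leukocyte markers summed to 631 to 1013 in mutants and 554 to 1052 in controls, and erythroid markers (4 tested of 7 in the table) to 211 to 328 in mutants and 229 to 449 in controls. In these last lists none was called by limma or limma-voom, with 0 macrophage and 1 erythroid marker at an unadjusted p under 0.05. The haemoglobin gene Hba-a1 was at 0 in every control and at most at 5.68 normalised reads in mutants. The listed haemoglobin genes Hba-a2, Hbb-bt and Hbb-bs were not in the table, so their RNA could not be assessed. Other erythroid markers were present. Alas2 averaged 84.1 normalised reads in mutants and 82 in controls, Klf1 32.4 in mutants and 29 in controls, and Epor 114 in mutants and 101 in controls. Slc4a1 averaged 28.1 in mutants and 86.5 in controls, with overlap between the groups (limma, adjusted p = 0.191).

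Summed over the 9 members, the libraries held 19672, 18712, 17450 and 18936 normalised reads in mutants 1 to 4, against 5978, 6420, 7330 and 6093 in controls 1 to 4. The mean sums were 18693 ± 924 in mutants and 6455 ± 612 in controls (SD, n = 4 each), a ratio of 2.9. The members took 0.0439% of all reads in mutants and 0.0154% in controls. Without Slc2a1 and Slc2a3, the sums were 2657 ± 141 in mutants and 2850 ± 167 in controls. Of the difference of 12237 normalised reads between the mean sums, Slc2a1 made up 70.6% and Slc2a3 31%, while Slc2a4 took away 2.44%.

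The make-up of the summed Slc2a signal therefore differed between the groups. Slc2a1 took 63.7 ± 1.71% of the reads in mutants and 50.6 ± 3.2% in controls. Slc2a3 took 22.1 ± 1.29% in mutants and 5.13 ± 0.915% in controls, and was the second member by reads in mutants and the fourth in controls. The pair together held 85.8 ± 0.839% in mutants and 55.7 ± 2.32% in controls (SD, n = 4 each). The share of Slc2a4 was 5.26 ± 0.637% in mutants and 19.8 ± 1.04% in controls, and that of Slc2a8 was 5 ± 0.371% in mutants and 14.1 ± 0.953% in controls. The remaining shares were 1.68% in mutants and 3.36% in controls for Slc2a12 and 1.14% in mutants and 3.35% in controls for Slc2a10. Slc2a13 took 0.956% in mutants and 2.76% in controls, Slc2a9 took 0.112% in mutants and 0.524% in controls, and Slc2a6 took 0.0876% in mutants and 0.363% in controls. By reads and by reads per kilobase of the longest transcript no share of the 9 overlapped between the groups, while with principal transcript lengths that of Slc2a9 did. Shares sum to 100%, so that of Slc2a12 was lower in mutants although its level rose, and that of Slc2a8 was lower at a level that was not called. With a sum 2.9 times as high in mutants, shares can separate with no change in level. The levels of Slc2a6, Slc2a8, Slc2a9, Slc2a10 and Slc2a13 overlapped between the groups.

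**Figure D4:**
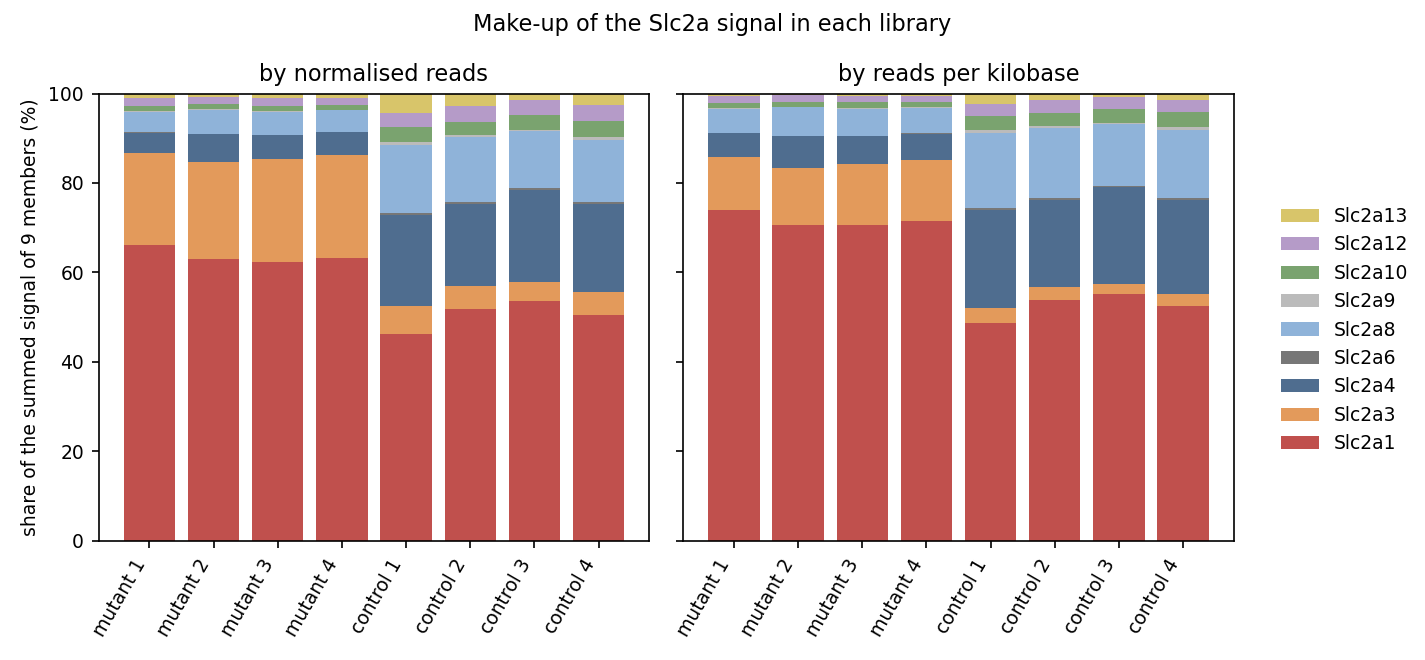
Share of each member in the summed signal of the 9 members, in percent, as a stacked bar for each library, mutants left of controls; the left panel is by normalised reads and the right panel by reads per kilobase of the longest transcript. By reads, Slc2a1 and Slc2a3 fill 85.8% of the mutant sum on average and 55.7% of the control sum, and per kilobase 84.6% of the mutant sum and 55.3% of the control sum.

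Levels of different genes were compared per kilobase of the longest annotated transcript. On this scale Slc2a1 averaged 3654 normalised reads per kilobase in mutants and 1005 in controls, and Slc2a3 averaged 660 in mutants and 52.4 in controls. In mutants Slc2a1 and Slc2a3 were followed by Slc2a4 at 308 and Slc2a8 at 299, which did not differ beyond their spread. Below them came Slc2a12 at 75.2, Slc2a10 at 59.8 and Slc2a13 at 27.4, and then Slc2a6 at 5.97 and Slc2a9 at 5.86, which overlapped. In controls Slc2a1 was followed by Slc2a4 at 401 and Slc2a8 at 291. Slc2a10 at 61, Slc2a3 at 52.4 and Slc2a12 at 52.1 came next in controls, and neighbours among these 3 overlapped. Slc2a13 at 26.5 and the overlapping pair of Slc2a9 at 9.09 and Slc2a6 at 8.53 were lowest in controls. With the length of the principal transcript, Slc2a3 averaged 1042 normalised reads per kilobase in mutants and 82.8 in controls, and the mean of Slc2a8 came above that of Slc2a4 in mutants, with overlap. In controls Slc2a3 then came above Slc2a10 with no overlap.

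Slc2a3 rose more than Slc2a1, as their ratio within each library shows. For every 100 reads of Slc2a1 there were 30.8, 34.7, 37.1 and 36.4 reads of Slc2a3 in mutants 1 to 4, against 13.7, 9.83, 7.68 and 9.82 in controls 1 to 4. The lowest mutant, mutant 1, was well above the highest control, control 1. The log2 ratio was -1.70, -1.53, -1.43 and -1.46 in mutants 1 to 4, against -2.86, -3.34, -3.70 and -3.34 in controls 1 to 4, a difference of 1.78 (two-sided exact permutation p = 0.0286, the smallest that 4 against 4 libraries can give). Per kilobase of the longest transcripts, Slc2a3 amounted to 18.1 per 100 of Slc2a1 in mutants and 5.35 in controls. Slc2a1 remained the more abundant of the pair in every library.

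**Figure D5:**
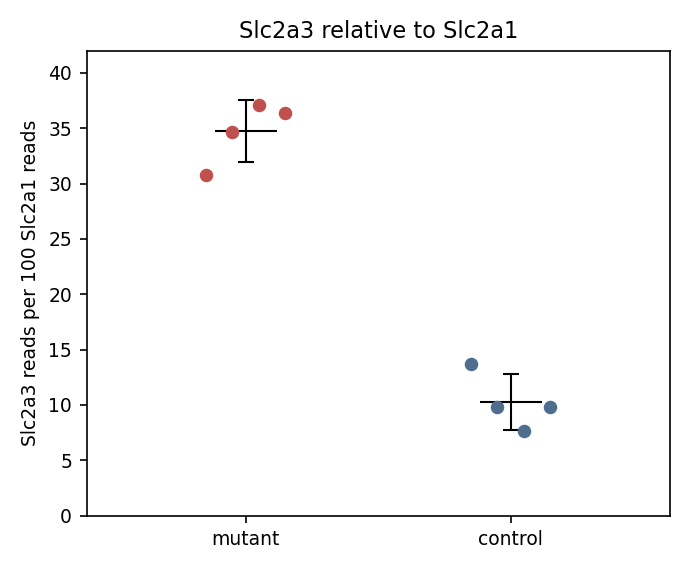
Reads of Slc2a3 for every 100 reads of Slc2a1 (linear axis from 0), mutants left of controls; points are libraries, and the black marks are group means with their SD. All 4 mutants lie between 30.8 and 37.1, above the 4 controls between 7.68 and 13.7.

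Promoter sequences from RefSeq (GRCm38.p6), from 250 bases before to 50 bases after the RefSeq start of the gene, were matched by symbol for 10 of the 12 family genes in the table, which did not include Slc2a3 and Slc2a4. Those of the called Slc2a1 and Slc2a12 are shown beside those of the uncalled Slc2a10 and Slc2a6. Each is given 5′ to 3′ on the strand of its gene: chr4:119108495-119108794 plus for Slc2a1, chr10:22644761-22645060 plus for Slc2a12, chr2:165503647-165503946 plus for Slc2a10 and chr2:27027949-27028248 minus for Slc2a6. Capitals mark ACGTG and GCGTG, the core letters of the HIF response element, on either strand.
Slc2a1: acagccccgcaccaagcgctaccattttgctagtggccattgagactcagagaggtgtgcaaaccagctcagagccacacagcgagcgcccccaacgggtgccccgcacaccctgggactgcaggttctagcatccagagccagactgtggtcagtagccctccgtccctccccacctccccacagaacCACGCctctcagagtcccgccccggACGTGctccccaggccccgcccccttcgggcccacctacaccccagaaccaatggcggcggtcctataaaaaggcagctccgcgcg
Slc2a12: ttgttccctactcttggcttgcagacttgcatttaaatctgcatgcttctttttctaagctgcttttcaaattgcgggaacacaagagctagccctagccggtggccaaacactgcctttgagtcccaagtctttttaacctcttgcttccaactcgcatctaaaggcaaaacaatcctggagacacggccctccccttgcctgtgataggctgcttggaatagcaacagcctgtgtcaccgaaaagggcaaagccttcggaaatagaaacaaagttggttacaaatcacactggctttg
Slc2a10: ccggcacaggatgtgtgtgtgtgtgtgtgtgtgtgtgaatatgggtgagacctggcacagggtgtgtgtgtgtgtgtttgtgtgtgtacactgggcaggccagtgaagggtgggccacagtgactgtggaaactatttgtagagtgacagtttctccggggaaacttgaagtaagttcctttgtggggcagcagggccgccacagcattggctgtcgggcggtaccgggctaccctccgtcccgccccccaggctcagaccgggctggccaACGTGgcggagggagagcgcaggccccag
Slc2a6: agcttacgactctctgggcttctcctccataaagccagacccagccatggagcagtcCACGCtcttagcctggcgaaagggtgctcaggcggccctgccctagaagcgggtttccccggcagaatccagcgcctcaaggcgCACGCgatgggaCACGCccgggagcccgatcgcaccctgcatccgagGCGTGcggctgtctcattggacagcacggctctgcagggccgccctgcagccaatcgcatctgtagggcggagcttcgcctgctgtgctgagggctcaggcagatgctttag
Positions are counted from the RefSeq start, which for Slc2a1, Slc2a10 and some others is not the first base of the gene in the GENCODE annotation. For Slc2a9 the stretch used (chr5:38483336-38483635, minus strand) lies well inside the annotated gene (chr5:38349273-38503143), so a GENCODE promoter upstream of it was not searched. Slc2a1 held ACGTG at position -36 on its own strand and GCGTG at -61 on the other strand. Slc2a6, not called, held GCGTG 4 times, and Slc2a10, not called, held ACGTG at +22. Slc2a8 held GCGTG at -173 on the other strand, and the promoters of Slc2a12, Slc2a9, Slc2a13, Slc2a2, Slc2a5 and Slc2a7 held neither. Of 32851 promoters of this length, 19.6% held ACGTG on either strand, 32.4% GCGTG and 43.8% at least one of them. A match is a description of the letters and shows no binding.

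The genes with which hexoses are trapped or set free inside the cell included several that rose. Of 11 tested genes of hexose phosphorylation and release, 5 rose, none fell and 6 were not called. Over all genes tested, 5.4% were called higher and 3.03% lower. The median log2 fold change of the list was 0.68, beside -0.01 over all genes. Hk2, the hexokinase bound to mitochondria that phosphorylates glucose, had 13402, 14058, 13153 and 13069 normalised reads in mutants 1 to 4, against 3000, 3462, 4749 and 3171 in controls 1 to 4 (log2 fold change 1.92, limma adjusted p = 6.87e-06). Its highest control was control 3, as for Slc2a1. Slc37a4, the glucose 6-phosphate carrier of the endoplasmic reticulum, averaged 2731 ± 117 in mutants and 1057 ± 56.6 in controls (SD, n = 4 each), with a log2 fold change of 1.37 (limma, adjusted p = 4.07e-08). Galk1, the galactokinase, averaged 8424 ± 785 in mutants and 3384 ± 324 in controls (SD, n = 4 each), with a log2 fold change of 1.32 (limma, adjusted p = 1.65e-06). Hk1, a hexokinase of most tissues that was named after its values were seen, was also called, at a log2 fold change of 0.68.

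Monocarboxylate carriers, which move lactate and pyruvate, had 2 genes higher of 6 tested and none lower, with a median log2 fold change of 0.37. Of all genes tested 5.4% were higher and 3.03% lower. Slc16a3, the lactate exporter MCT4, had 17879, 18913, 15314 and 17556 normalised reads in mutants 1 to 4, against 1917, 2787, 3963 and 2154 in controls 1 to 4 (log2 fold change 2.74, limma adjusted p = 0.000254). Bsg, the chaperone of these carriers, averaged 29920 ± 2357 in mutants and 16371 ± 1449 in controls (SD, n = 4 each), with a log2 fold change of 0.87 (limma, adjusted p = 3.57e-05). In the polyol and fructose list 1 of 5 rose and 1 fell, beside the same shares over all genes, with a median of -0.15. Aldoc, an aldolase, averaged 1094 ± 41.4 in mutants and 144 ± 20.6 in controls (log2 fold change 2.92, limma adjusted p = 9.19e-09). Sord, which turns sorbitol into fructose, averaged 891 ± 108 in mutants and 1217 ± 145 in controls (log2 fold change -0.45, limma adjusted p = 0.0204).

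The lists for the other substrates and for transporter traffic had between 0 and 2 called genes each, beside 8.43% of all genes tested. The sodium-coupled and other sugar transporters had 0 of 6 tested genes called by limma or limma-voom, and 0 with an unadjusted p under 0.05, at a median log2 fold change of -0.04. Of 8 genes of myo-inositol handling 1 fell, Impa2, an inositol monophosphatase, with 287 ± 18.9 in mutants and 376 ± 42.3 in controls (log2 fold change -0.38, limma adjusted p = 0.0455). Of 11 genes of urate and ascorbate handling 1 fell, the urate exporter Abcg2, with 1574 ± 145 in mutants and 2140 ± 135 in controls (log2 fold change -0.45, limma adjusted p = 0.00336). Of 19 genes of transporter trafficking and degradation 2 rose and 17 were not called, with a median of -0.03. Vamp2 and Stx4a, SNARE proteins of GLUT4 vesicle fusion, had log2 fold changes of 0.30 (limma, adjusted p = 0.0274) and 0.24 (limma, adjusted p = 0.0467). Txnip, an arrestin that draws GLUT1 into the cell, is named after its values were seen. It had 2465, 3868, 3475 and 2633 normalised reads in mutants 1 to 4, against 6818, 3894, 6020 and 3276 in controls 1 to 4, which overlapped and was not called (log2 fold change -0.65, limma adjusted p = 0.211).

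The genes nearest to Slc2a1 and Slc2a3 in profile were sought among 12219 tested genes with a mean of at least 100 normalised reads, by the root mean square difference in log2 values over the 8 libraries, each centred on the control mean of the gene. Nearest to Slc2a1 were the glycolytic genes Aldoa, at a difference of 0.07, and Pfkl, at 0.09. Aldoa averaged 64425 ± 5188 in mutants and 17947 ± 2058 in controls, and Pfkl averaged 38359 ± 3053 in mutants and 11143 ± 1261 in controls (SD, n = 4 each). The third, Aldoart1, at 0.10, is a near-identical copy of Aldoa and its reads are uncertain. Nearest to Slc2a3 were Pfkp, the platelet-type phosphofructokinase, at 0.13, Rgs11, at 0.13, and Fcgbp, at 0.15. Pfkp averaged 4420 ± 312 in mutants and 372 ± 40.9 in controls (SD, n = 4 each), an 11.9-fold difference beside 12.6-fold for Slc2a3. Rgs11 averaged 918 ± 102 in mutants and 74.9 ± 5.89 in controls, and Fcgbp averaged 461 ± 36.8 in mutants and 36.6 ± 3.98 in controls.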

How the data were processed

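Libraries were grouped by genotype, per the labels. STAR 2.5.3a, DESeq2 1.18.1 and the mm10 build are named in the submitters' processing notes; no source used here names the read counter, the annotation or its strand setting. The deposited signal per library is read counts divided by size factors, and the values show a repeat of that division, with the 8 factors recycled down the genes. Whole reads rebuilding the deposited mean within 1e-09 were found for 20254 of 20254 genes, and values divided once were analysed. The deposited log2 fold changes and p-values of the authors served as an alternative; the deposited score was not used. Genes with at least 10 normalised reads in 4 libraries were tested on log2(value + 1) with limma 3.58.1 (R 4.3.3; trended, robust variances; tested on simulated data); p-values were two-sided. Count tests had been planned for recovered reads but were not run, since the deposited values are a signal; limma-voom stood in. Vhl and the ratio of Slc2a3 to Slc2a1 were tested by exact permutation. Named genes were the family, Vhl, up to 3 called genes per list with the smallest adjusted p, called markers, overlapping genes and the 3 nearest profiles; a few of these are not reported here. Gene positions are from GENCODE (GRCm38). Members and lists were chosen with earlier results of these data known. Precision is limited by the spread between 4 libraries a group. Other scalings, pseudocounts, filters, left-out libraries and a replicate block were tried.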

Additional observations from a re-analysis of the deposited data

Results flagged for a closer look

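Chance marks about 1 in 20 groups as holding a library far from the others, and 3 of the 44 group results checked did. Slc2a4 in mutant 2 had 1148 normalised reads, against 912 to 948 in the other mutants. Slc2a4 in control 3 had 1518 normalised reads, against 1180 to 1221 in the other controls. The share of Slc2a13 in the summed Slc2a signal was 0.674% in mutant 2, against 1.02% to 1.08% in the other mutants. Both libraries had the lowest sums of their groups in 6 of the 9 marker lists, and the part of this in the results was not tested.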

How the results depend on the processing

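Slc2a1 and Slc2a3 were called under all 21 alternatives, at log2 fold changes of 1.79 to 1.97 and 3.62 to 3.73, and Vhl at -1.98 to -1.88. Slc2a12 lost its call only with the replicate block (limma, adjusted p = 0.055). Slc2a4 was called in 12 of 21 alternatives, among them that without control 3 and mutant 2, which held its highest values. Beside the left-out libraries it lost its call with the replicate block (adjusted p = 0.0823), without trended and robust variances (0.0838) and on the deposited values (0.0921), each by limma. The number of lower members was then 0, and 0 to 1 over the left-out libraries, with 3 to 4 members called. Genes called numbered 697 on the deposited values, 764 without control 3 and mutant 2, 774 to 1565 with 1 library left out, and 1888 in the authors' deposited table, beside 1297. Replicate numbers did not pair the libraries (correlations of deviations 0.21, -0.14, -0.14 and 0.06); the replicate block gave 766 genes and 2 members. The ratio of Slc2a3 to Slc2a1 differed by 1.65 to 1.93 with 1 library left out, and by 1.65 without control 3 and mutant 2 (exact permutation p = 0.1, the smallest for 3 against 3). By reads per kilobase of the longest transcript Slc2a1 took 71.7% of the sum in mutants, and Slc2a3 took 13% in mutants and 2.79% in controls. With principal transcripts, chosen after seeing the data, Slc2a3 took 18.3% in mutants and 3.83% in controls, and Slc2a1 45.8% in controls. The causes of these changes were not tested. The planned edgeR and DESeq2 tests were not run. Slc2a9 varied between libraries by more than counting gives (41.1% in mutants and 42.6% in controls, where counting gives 21.7% in mutants and 17.3% in controls).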
